A study of Anas platyrhynchos and Gallus gallus and Anas rubripes with 21 samples.

Results

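The HOX genes were examined in trigeminal ganglia, the paired cranial ganglia whose neurons serve sensation in the face and the bill. All genes of the deposited table whose consensus symbol reads HOXA, HOXB, HOXC or HOXD followed by a number were taken, which gave 39 of 20451 genes. The rule reads the symbol and no level. Of these, 35 stand in both the duck and the chicken annotation and 4, HOXA13, HOXB1, HOXC6 and HOXD1, in the chicken annotation alone. The ganglia came from 21 late embryos, 3 in each of 7 species, dissected after the embryo had broken the inner shell membrane. The embryonic day was 19 to 21 in chicken (Gallus gallus), 21 to 22 in Black duck (Anas rubripes), 25 to 26 in Pekin duck (Anas platyrhynchos) and Lesser Scaup (Aythya affinis), 28 to 29 in Harlequin duck (Histrionicus histrionicus), 28 to 31 in Wood duck (Aix sponsa) and 30 to 31 in Ruddy duck (Oxyura jamaicensis). Chicken and Pekin duck are domestic birds whose eggs came from a commercial farm, and the other eggs came from a research center or a waterfowl conservancy, so species, embryonic day and egg source cannot be told apart. No bird was treated or genetically altered, and sex is not stated.

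HOX genes encode homeodomain transcription factors that give the body axis its regional identity. Birds carry them in 4 clusters, HOXA to HOXD, and the order of genes along a cluster follows the order of their domains from the hindbrain to the tail. Genes at the same position of different clusters form a paralog group, with low numbers at the head end and high numbers at the tail end. The trigeminal ganglion arises from placodes and neural crest in front of the region where HOX genes are active, and the skeleton of the first pharyngeal arch forms without them. In mouse, spinal sensory ganglia express many HOX genes, so these genes separate trunk ganglia from the ganglia of the face.

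Levels are given in RPKM, read counts scaled to the length of the gene and to the number of mapped reads, so that genes of different length can be compared. Each value is the authors' mean over 3 birds, and the spread between birds is not in the table, so no species mean carries an error and no difference between species was tested. The only spread at hand is the SD between the 6 duck species. The depth of each bird is likewise unknown from the table, and the total RPKM over all genes lay between 340453 in chicken and 415033 in Ruddy duck. A level of 1 RPKM in a species mean was used as the limit between low and measurable genes. In bulk tissue, fewer cells of a type and less RNA per cell cannot be told apart.

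Sensory ganglion markers were measured in all species. Each of the 14 genes of that list reached 1 RPKM in some species (31.3% of all genes in the table did so in none), although POU4F2 was at 0.823 RPKM in Pekin duck. The list was led by the neurofilament genes NEFM and NEFL (4859 and 3769 RPKM on average over the species) and by STMN2, a microtubule regulator of neurons (1482 RPKM). POU4F1, which defines sensory ganglion neurons, stood at 32.2 RPKM in chicken, while the ducks ranged from 13.5 to 22.9 RPKM. It stands in the chicken annotation alone, so species and annotation cannot be told apart for it. Of such genes at 1 RPKM or more in some species, 69.1% had chicken above every duck. Of 9 visceral ganglion markers listed, 8 were in the table and 6 of these were under 1 RPKM in every species. The other 2 were the cholinergic genes SLC18A3, with up to 5.13 RPKM, and CHAT, with up to 3.59 RPKM. Ruddy duck had the lowest share of all genes at 1 RPKM or more, 55.4%, against 57.7% in Wood duck, 58.9% in Black duck, 59.3% in Pekin duck, 59.3% in Harlequin duck, 59.4% in Lesser Scaup and 60.4% in chicken.

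Nearly all HOX genes were under the limit. Of the 39 members, 35 (89.7%) were under 1 RPKM in every species, against 31.3% of all genes in the table. Among genes in both annotations the share was 32 of 35 members (91.4%) against 13.7% of all such genes. Among genes in the chicken annotation alone it was 3 of 4 members against 64.2%. The 4 genes that reached 1 RPKM in at least 1 species were HOXB2, HOXD1, HOXD3 and HOXD8. The highest level of a member over the 7 species had a median of 0.0410 RPKM, and the same median over all genes was 5.68 RPKM.

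The counts of members at 1 RPKM and at 0 differed by position in the cluster. In paralog groups 9 to 13, none of 16 members reached 1 RPKM, 15 stayed under 0.1 RPKM in every species, and 9 were listed at 0 in all 7. In groups 5 to 8, 1 of 11 members reached 1 RPKM and 1 was listed at 0 throughout. In groups 1 to 4, 3 of 12 members reached 1 RPKM, and none was listed at 0 throughout. Of these 12, 8 were above 0 in every species, against 13 of all 39 members. The shares of all genes under 0.1 RPKM, or above 0, in every species were not counted, so these HOX counts have no background here. HOXD1, among the 3, reached 1 RPKM in chicken alone. Mean levels did not follow position gene by gene, as HOXD8 of groups 5 to 8 had the highest (1.61 RPKM). HOXD9 of groups 9 to 13 (0.408 RPKM) was above HOXB4 of groups 1 to 4 (0.291 RPKM). In all, 10 members were listed at 0 in every species (25.6%, against 6.83% of all genes). These were HOXA11, HOXB6, HOXC9, HOXC10, HOXC11, HOXC12, HOXC13, HOXD11, HOXD12 and HOXD13. Apart from HOXB6 they belong to the posterior groups, whose members pattern the lower trunk, the limbs and the tail bud. HOXD13 is known for its part in digit formation, and HOXA11 in the forearm.

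**Figure D1:**
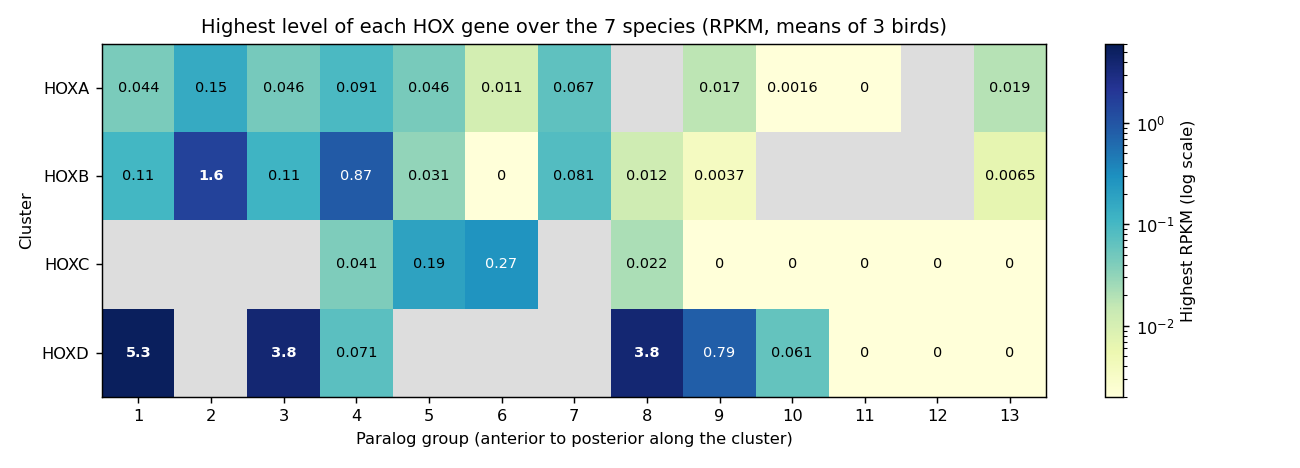
Highest level of each HOX gene over the 7 species, with the 4 clusters as rows and the paralog groups 1 to 13 as columns. Color and printed value give RPKM, bold marks 1 RPKM or more, and grey marks positions with no gene in the table. HOXB2, HOXD1, HOXD3 and HOXD8 stand out, and the posterior ends of HOXC and HOXD are at 0.

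By cluster, HOXA and HOXC held no member at 1 RPKM. In HOXA, 10 of 11 members stayed under 0.1 RPKM in every species. The exception was HOXA2, the gene of second-arch identity, whose forward limit in the hindbrain lies further to the front than that of other HOX genes. HOXA2 ranged from 0.0352 RPKM in Pekin duck to 0.149 RPKM in Ruddy duck and was above 0 in every species. In HOXC, 5 of 9 members were listed at 0 throughout and none was above 0 in every species. HOXD held 3 of the 4 genes that reached 1 RPKM, and 3 of its 9 members were listed at 0 throughout. Of the 10 HOXB members, 1 reached 1 RPKM.

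HOXD8 was the member with the highest mean level over the 7 species, 1.61 RPKM, which lies at percentile 43.3 of the means of all genes. It belongs to the middle of the cluster and is known from the trunk and from limb buds (duck gene 106015147, chicken gene 396301). HOXD8 measured 3.85 RPKM in Ruddy duck, 1.90 in Harlequin duck, 1.40 in Wood duck, 1.37 in Black duck, 1.30 in Pekin duck, 0.976 in Lesser Scaup and 0.457 in chicken. Chicken thus lay below all 6 ducks, and Ruddy duck lay apart at the top, while the values of Wood, Black and Pekin duck lay close together. The duck mean was 1.80 RPKM (SD between duck species 1.05), 3.93-fold the chicken level.

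The gene next to it toward the tail end, HOXD9, stayed under 1 RPKM but was above 0 in every species. HOXD9 measured 0.788 RPKM in Ruddy duck, 0.521 in Harlequin duck, 0.448 in Pekin duck, 0.333 in Wood duck, 0.302 in chicken, 0.250 in Black duck and 0.216 in Lesser Scaup. HOXD10, the next gene in the row and a gene of lumbar motor neurons in mouse, was far lower, from 0.00947 RPKM in chicken to 0.0611 RPKM in Ruddy duck. HOXD8, HOXD9 and HOXD10 were all highest in Ruddy duck and second highest in Harlequin duck, and all were lowest among the ducks in Lesser Scaup. In the RefSeq annotation of a newer Pekin duck assembly (IASCAAS_PekinDuck_T2T) these 3 genes stand side by side, followed by HOXD3. Counting is stated to have used default settings, with no strand option named. Reads of an antisense transcript in the cluster would then be counted with the member it overlaps.

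Ruddy duck also had the highest summed level among the ducks for several lists of non-neuronal markers, in part through single genes. The 11 endothelial genes summed to 74.5 RPKM in Ruddy duck and to between 33.7 and 54.7 RPKM in the other ducks. Without PECAM1, an adhesion gene of endothelium and blood cells, the sum was 43.7 RPKM in Ruddy duck and 43.6 RPKM in Pekin duck, and CLDN5 and ESAM were lowest of all species in Ruddy duck, at 0.933 and 0.717 RPKM. The 15 cartilage and bone genes summed to 166 RPKM in Ruddy duck against 25.3 to 94.1 RPKM, but without SPP1, which encodes osteopontin, Lesser Scaup (87.7 RPKM) was above Ruddy duck (84.2 RPKM). Of the 17 red blood cell genes listed, 10 were in the table, at 324 RPKM in Ruddy duck and 71.9 to 300.0 RPKM in the other ducks, and without the globin gene HBBA Lesser Scaup (189 RPKM) was again above Ruddy duck (179 RPKM). These 3 genes were singled out after their values were seen. No gene of the lists was at 0 in every species, and in chicken, where HOXD8 was lowest, the sums were 89.1, 231 and 255 RPKM. The part of these tissues in the HOXD8 level was not tested.

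**Figure D2:**
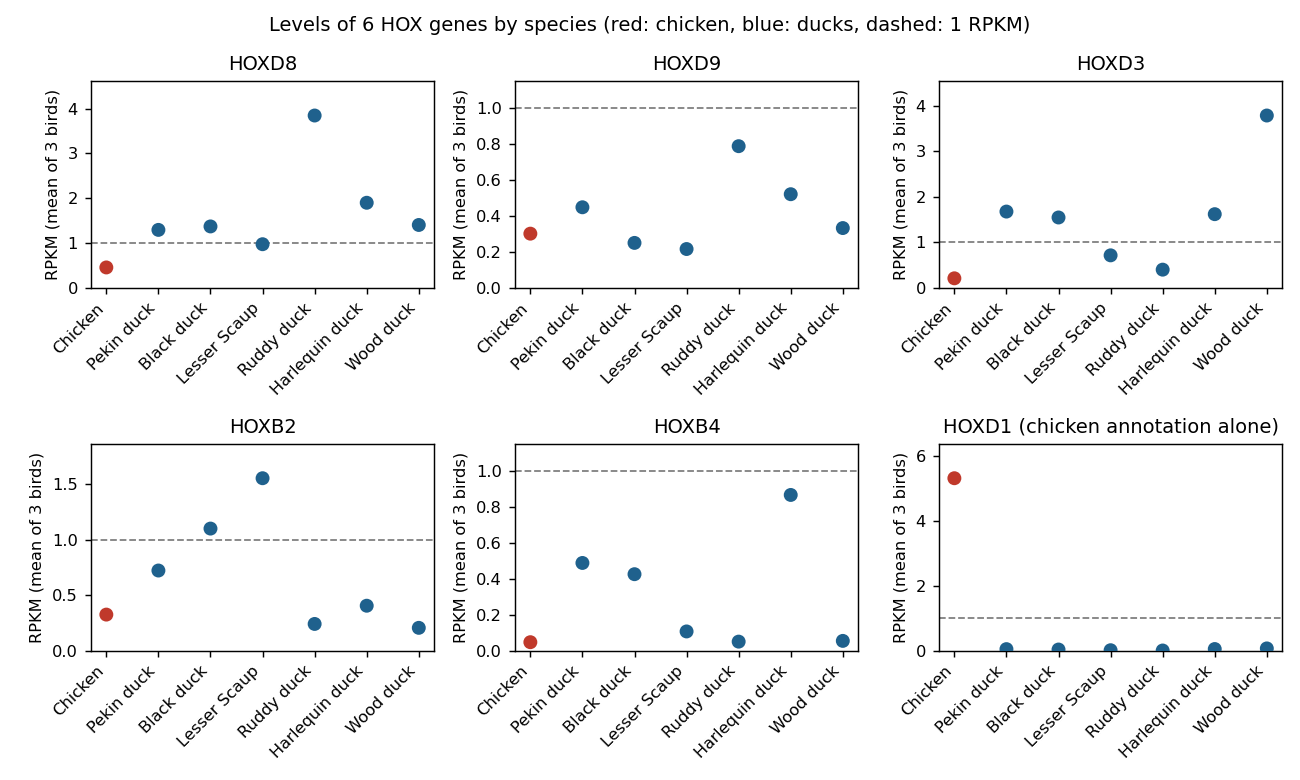
Levels of 6 HOX genes in each species, in RPKM on a linear axis that starts at 0, with 1 point per species (the mean of 3 birds), chicken in red and ducks in blue. The dashed line marks 1 RPKM. HOXD8 is highest in Ruddy duck (3.85 RPKM), HOXD3 in Wood duck (3.79 RPKM) and HOXD1 in chicken (5.31 RPKM).

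HOXD3 followed another order of species. It is a gene of the neck region, which patterns the first vertebrae in mouse (duck gene 106015148, chicken gene 431212). HOXD3 measured 3.79 RPKM in Wood duck, 1.68 in Pekin duck, 1.62 in Harlequin duck, 1.55 in Black duck, 0.717 in Lesser Scaup, 0.402 in Ruddy duck and 0.212 in chicken. Wood duck stood apart at the top, Pekin, Harlequin and Black duck lay close together, and chicken lay below every duck. The duck mean was 1.63 RPKM (SD between duck species 1.18), and the highest duck had 9.42 times the level of the lowest. Ruddy duck, at the top for HOXD8, was thus the lowest duck for HOXD3. HOXD4, which lies within the span of HOXD3 in the RefSeq annotation, had only 0.0176 to 0.0711 RPKM. Whether the exons of these genes overlap in the genomes used for counting was not examined, so any effect on their counts is unknown.

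In Wood duck the lists of connective tissue and vessels were at their lowest. The 13 genes of fibroblasts and meninges summed to 520 RPKM in Wood duck, 1231 to 1423 RPKM in the other ducks and 1869 RPKM in chicken. The endothelial list, at 33.7 RPKM, and the cartilage and bone list, at 25.3 RPKM, were also lowest there. The 15 skeletal muscle genes in the table summed to 9.19 RPKM in Wood duck and to 222 RPKM in Black duck, where HOXD3 was the fourth highest of the species. The part of these tissues in the HOXD3 level was not tested.

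HOXB2 was the only member of its cluster to reach 1 RPKM, and did so in 2 ducks. It acts in the hindbrain segment of the facial nerve (duck gene 101799996, chicken gene 429940). HOXB2 measured 1.55 RPKM in Lesser Scaup, 1.10 in Black duck, 0.723 in Pekin duck, 0.405 in Harlequin duck, 0.325 in chicken, 0.241 in Ruddy duck and 0.206 in Wood duck. The ducks spanned a 7.56-fold range, and chicken lay within it. In the same ducks, the central nervous list (13 of 16 genes in the table) summed to 193 RPKM in Lesser Scaup, 157 in Black duck, 154 in Pekin duck, 192 in Harlequin duck, 106.5 in Ruddy duck and 136 in Wood duck, and to 148 in chicken. AQP4 alone made up most of the sum in every species, for example 123 of the 136 RPKM in Wood duck.

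The genes of the central nervous list did not share 1 order of species. GFAP, an intermediate filament gene of glia, was lowest in the ducks at the low end of HOXB2, at 8.48 RPKM in Ruddy duck and 7.66 RPKM in Wood duck against 27.2 to 48.6 RPKM in the other species. The same ducks were lowest for OLIG2, at 1.06 RPKM in Ruddy duck and 0.387 RPKM in Wood duck against 3.29 to 4.53 RPKM. They were also lowest for NKX2-2, at 0.509 and 0.625 RPKM against 1.31 to 3.08 RPKM. For NKX6-1 they were at 0.193 and 0.0692 RPKM, against 0.227 to 0.256 RPKM in the other ducks and 2.185 RPKM in chicken. OLIG2 and NKX6-1 stand in the chicken annotation alone, so species and annotation cannot be told apart for them. The water channel gene AQP4 was lowest in Ruddy duck (87.8 RPKM) and highest in Harlequin duck (138 RPKM), and Wood duck had 123 RPKM. The glutamate transporter gene SLC1A2 ranged from 4.36 RPKM in Wood duck to 21.3 RPKM in Lesser Scaup, and Ruddy duck (7.94 RPKM) was above Pekin duck (6.15 RPKM). Of the 13 genes, 7 (53.8%, against 31.3% of all genes) were under 1 RPKM in every species and none was at 0 in all. Whether central tissue at the nerve root contributes to the HOXB2 level was not tested.

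HOXB4, a gene of the hindbrain and of blood stem cells, came close to the limit in 1 species. HOXB4 measured 0.865 RPKM in Harlequin duck, 0.487 in Pekin duck, 0.425 in Black duck, 0.107 in Lesser Scaup, 0.0543 in Wood duck, 0.0501 in Ruddy duck and 0.0470 in chicken. Harlequin, Pekin and Black duck thus had several times the level of the other 4 species. HOXB1, the most anterior gene of the cluster and a marker of the facial hindbrain segment, reached 0.105 RPKM in Black duck, 0.0968 in Pekin duck and 0.0963 in Harlequin duck and was at most 0.0167 RPKM elsewhere. HOXB1 was therefore also highest in Black, Pekin and Harlequin duck, although it stands in the chicken annotation alone. HOXB3, which spans HOXB4 in the RefSeq annotation, did not exceed 0.114 RPKM.

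Among the central HOXC genes, HOXC5 and HOXC6 were both highest in Harlequin duck, followed by Lesser Scaup and Black duck. HOXC6, known from the forelimb level of the trunk, measured 0.267 RPKM in Harlequin duck, 0.186 in Lesser Scaup and 0.118 in Black duck, at most 0.0434 in the other ducks, and was listed at 0 in chicken. HOXC5 measured 0.185 RPKM in Harlequin duck, 0.139 in Lesser Scaup and 0.0432 in Black duck, at most 0.0233 in the other ducks, and was listed at 0 in chicken. Both genes lie next to each other in the RefSeq annotation. The remaining members under 1 RPKM that were above 0 somewhere had highest values between 0.00160 RPKM (HOXA10, in chicken) and 0.114 RPKM (HOXB3, in Harlequin duck).

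HOXD1 was the highest value of any HOX gene in any species, and it occurred in chicken alone. In mouse this gene is expressed in nociceptive sensory neurons and takes part in their wiring. That is background from mouse alone, and bulk RNA does not show which cells of the chicken ganglia carry HOXD1. HOXD1 (chicken gene 101750316) measured 5.31 RPKM in chicken, 0.0686 in Wood duck, 0.0501 in Harlequin duck, 0.0468 in Pekin duck, 0.0344 in Black duck, 0.0133 in Lesser Scaup and 0.00429 in Ruddy duck. All ducks lay under 0.1 RPKM, and the chicken level was 146 times the duck mean of 0.0363 RPKM (SD between duck species 0.0241). Since HOXD1 stands in the chicken annotation alone, the duck values rest on duck reads aligned to the chicken genome, and species and annotation cannot be told apart for it. In the RefSeq annotation of the newer Pekin duck assembly, no gene carried the symbol HOXD1. A protein-coding gene named LOC113844207 stands there between HOXD4 and MTX2, and its gene ID was not in the deposited table. Whether LOC113844207 is the duck HOXD1 was not examined.

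Genes of that annotation class were low in ducks in general. Over 1950 such genes at 1 RPKM or more in some species, the median log2 ratio of the duck mean to chicken, computed on RPKM + 1, was -1.08 (quartiles -1.87 and -0.18), against 0.24 over 10586 genes in both annotations. HOXD1 had a log2 ratio of -2.61, and 237 of the 1950 genes (12.2%) were as low or lower. With the ducks near 0 and a pseudocount of 1, that ratio is set mostly by the chicken level. The rank therefore says little about how low the ducks were, and with a pseudocount of 0.1 the ratio was -5.31. In 93 of the 1950 genes every duck was under 0.1 RPKM while chicken had at least 5 RPKM, as for HOXD1. The same held for 8 of the 10586 genes in both annotations. How many genes of each class had at least 5 RPKM in chicken was not counted. Other ganglion genes of the class were nevertheless measured in the ducks at levels near those of chicken. TLX3, a sensory neuron factor, had 26.0 RPKM in chicken and 10.8 to 26.4 RPKM in the ducks, and ISL1 had 46.6 RPKM in chicken and 24.8 to 50.1 RPKM in the ducks. The other 3 HOX genes of the class, HOXA13, HOXB1 and HOXC6, had at most 0.00694 RPKM in chicken, so none of them shared the pattern of HOXD1.

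**Figure D3:**
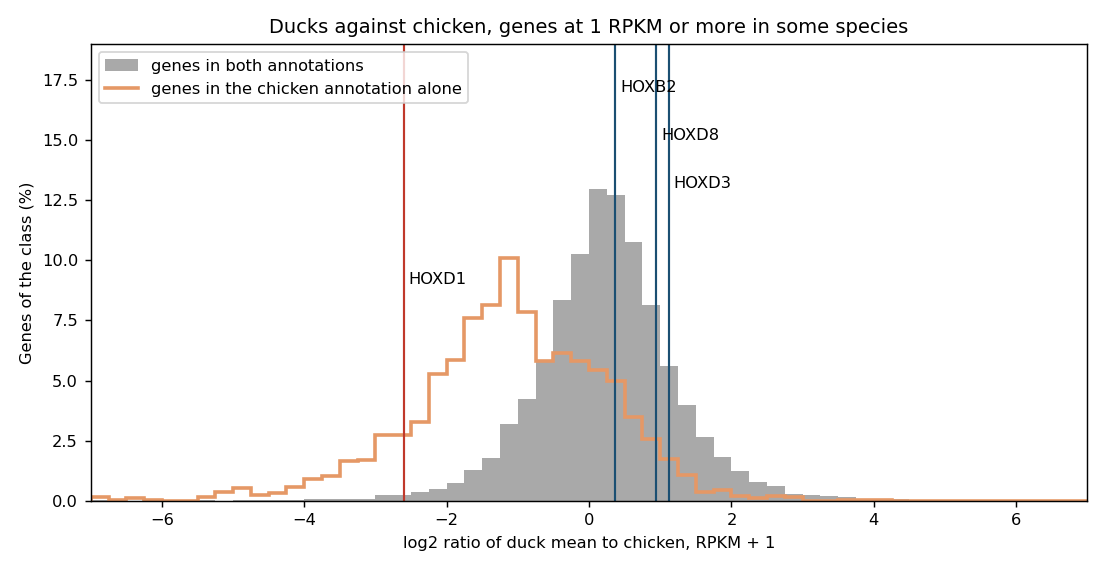
Distribution of the log2 ratio of the mean of 6 ducks to chicken, on RPKM + 1, for genes at 1 RPKM or more in some species. Grey shows genes in both annotations (median 0.24), orange genes in the chicken annotation alone (median -1.08), and vertical lines the 4 HOX genes, with HOXD1 at -2.61.

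Of the 4 members at 1 RPKM or more in some species, chicken lay above every duck for HOXD1, below every duck for HOXD3 and HOXD8 and within the range of the ducks for HOXB2. Over all genes at that level, chicken lay above every duck in 29.1% and below every duck in 33.9%. In genes of the chicken annotation alone the shares were 69.1% and 8.77%, and in genes of both annotations 22.9% and 36.2%. The position of chicken for HOXD1 was therefore the usual one for its class, and 3 members of both annotations are too few to set a share beside 36.2%. The log2 ratios were 1.12 for HOXD3, 0.94 for HOXD8 and 0.36 for HOXB2, with an SD of log2 values between duck species of 0.61, 0.46 and 0.44. With 1 mean per species no test of these ratios was possible.

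The number of members at 1 RPKM or more was 3 in Black duck (7.69% of the 39), 2 each in Pekin, Harlequin and Wood duck, and 1 each in Ruddy duck, Lesser Scaup and chicken. Over all genes, the share at that level ranged from 55.4% in Ruddy duck to 60.4% in chicken. Different HOX genes made up the counts of the species. Black duck had HOXB2, HOXD3 and HOXD8, while Pekin, Harlequin and Wood duck had HOXD3 and HOXD8. Ruddy duck had HOXD8 alone, Lesser Scaup HOXB2 alone and chicken HOXD1 alone. Members above 0 numbered between 18 in chicken and Wood duck and 23 in Harlequin duck. The share of all genes above 0 in each species was not counted.

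The summed level of all 39 genes was similar across species, although the genes behind it differed. It was 7.15 RPKM in chicken, 6.46 in Harlequin duck, 6.07 in Wood duck, 5.91 in Ruddy duck, 5.32 in Black duck, 5.07 in Pekin duck and 4.22 in Lesser Scaup. HOXD1 made up 74.3% of the sum in chicken, HOXD8 65.1% in Ruddy duck, HOXD3 62.4% in Wood duck and HOXB2 36.8% in Lesser Scaup. Without HOXD1 the chicken sum was 1.84 RPKM, below every duck. The HOXD cluster held 92.7% of the sum in Wood duck, 88.2% in chicken and 87.0% in Ruddy duck, and the lowest share was 46.3% in Lesser Scaup, where HOXB held 40.7%.

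**Figure D4:**
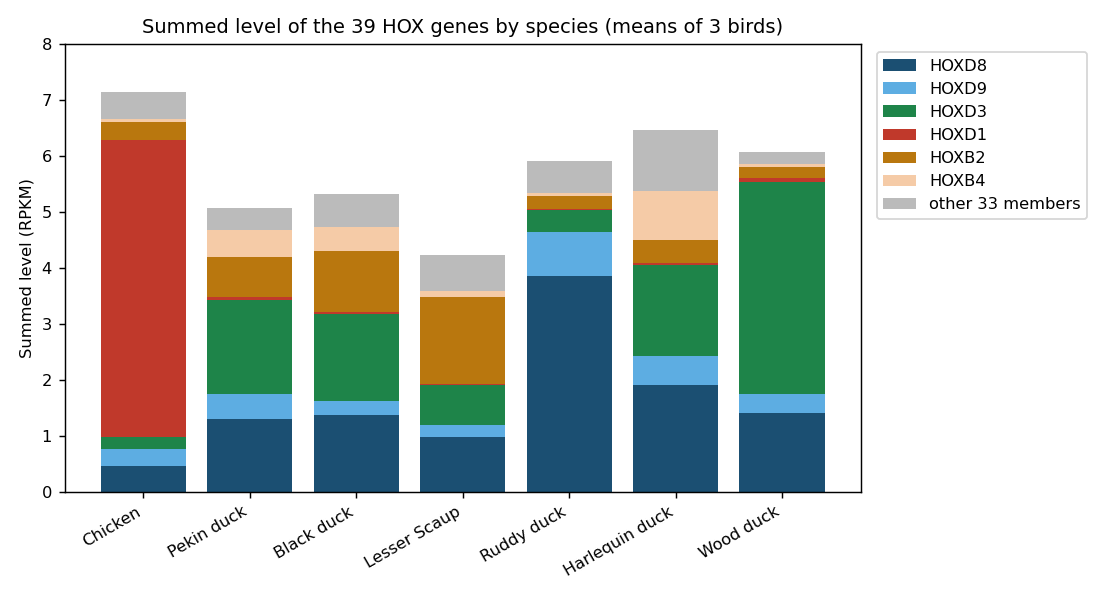
Summed RPKM of the 39 HOX genes by species, with bars starting at 0 and split by gene. HOXD1 (red) fills most of the chicken bar of 7.15 RPKM, HOXD8 (dark blue) most of the Ruddy duck bar and HOXD3 (green) most of the Wood duck bar.

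The partners of HOX proteins, unlike the HOX genes, were expressed in every species. PBX, MEIS and PKNOX proteins belong to the TALE class of homeodomain factors, which bind DNA together with HOX proteins and also have roles of their own in the head. Of 9 such genes listed, 7 were in the table and all 7 reached 1 RPKM. Most genes in both annotations did so too, as 13.7% of them were under 1 RPKM in every species. MEIS2 had 10.5 RPKM in chicken and 24.9 to 31.8 RPKM in the ducks. MEIS1 had 9.72 RPKM in chicken and 12.5 to 23.0 RPKM in the ducks, and PBX3 had 6.26 and 14.2 to 19.2 RPKM. Chicken lay below every duck for all 7 genes, all in both annotations, where 36.2% of genes do so. Their median log2 ratio of ducks to chicken was 1.10, against 0.24 over the genes of both annotations.

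Genes known to switch HOX clusters on, or to keep them silent, were near the background of the table. Of 41 such genes listed, 36 were in the table and 7 of them (19.4%) were under 1 RPKM in every species, between the 13.7% of genes in both annotations and the 31.3% of all genes. Among the other 29, chicken lay above every duck in 7, below every duck in 11 and within the ducks in 11, where over all genes it lay above in 29.1% and below in 33.9%. The members highest on average were RBBP4, a histone-binding subunit of Polycomb repressive complex and other chromatin complexes (60.4 RPKM), CRABP1, a carrier of retinoic acid (19.0 RPKM), and RNF2, a Polycomb ubiquitin ligase (17.5 RPKM). EZH2, the histone methyltransferase of the Polycomb machinery that silences HOX clusters, ranged from 3.70 RPKM in chicken to 6.03 RPKM in Lesser Scaup. The CDX genes, which switch on central and posterior HOX genes in the embryo, were near 0, with CDX1 and CDX2 listed at 0 in every species and CDX4 at most at 0.00619 RPKM.

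CRABP1 differed widely between ducks. Retinoic acid is a known inducer of anterior HOX genes. CRABP1 measured 67.3 RPKM in Ruddy duck, 54.0 in Harlequin duck, 3.89 in Wood duck, 2.78 in Pekin duck, 2.36 in Lesser Scaup, 2.09 in Black duck and 0.400 in chicken. Ruddy and Harlequin duck, which were highest in CRABP1, were also the highest 2 species for HOXD8, HOXD9 and HOXD10, which are central and posterior genes. The anterior genes, groups 1 to 4, had their lowest sum among the ducks in Ruddy duck, at 1.03 RPKM. That sum was 3.48 RPKM in Harlequin duck, 2.63 to 4.26 RPKM in the remaining ducks and 6.22 RPKM in chicken. HOXD1, in the chicken annotation alone, made up 5.31 RPKM of the chicken sum. Without HOXD1 the anterior sum of chicken was below that of Ruddy duck. The retinoic acid synthesis genes ALDH1A2 and ALDH1A3, named after their values were seen, were highest in Harlequin duck, at 31.5 and 22.1 RPKM, against 9.95 to 16.9 and 3.37 to 11.8 RPKM elsewhere. The part of retinoid genes in the HOX levels was not tested.

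The genes that flank the clusters did not share the low levels of the HOX genes. Of 31 flanking genes listed, 26 were in the table and 2 of them (7.69%) were under 1 RPKM in every species, against 31.3% of all genes and 13.7% of genes in both annotations. The highest on average were TAX1BP1, which flanks HOXA (166 RPKM), ATP5G3, a subunit of ATP synthase near HOXD (157 RPKM), and HNRNPA2B1, an RNA-binding protein gene near HOXA (113 RPKM). TAX1BP1 measured 456 RPKM in Ruddy duck and at most 134 RPKM elsewhere, and without Ruddy duck its mean was 118 RPKM, below the 158 RPKM of ATP5G3. MTX2, which borders HOXD at its anterior end, had 72.3 RPKM in chicken and 33.3 to 109 RPKM in the ducks. The homeobox genes EVX1 and EVX2, which border HOXA and HOXD at the posterior end, were the only 2 of the list under 1 RPKM, with highest values of 0.0150 and 0.0108 RPKM. Among the 24 genes at 1 RPKM or more, chicken lay above every duck in 10 and below in 6, where the shares over all genes were 29.1% and 33.9%.

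Homeobox genes of the head were less uniformly low than the HOX genes. Of 39 genes in that list, all in the table, 26 (66.7%) were under 1 RPKM in every species, against 31.3% of all genes. EMX1 alone was listed at 0 throughout. Among the highest were TLX3 (21.8 RPKM on average) and SIX4 (4.24 RPKM), a placode gene of the cranial sensory system.

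**Figure D5:**
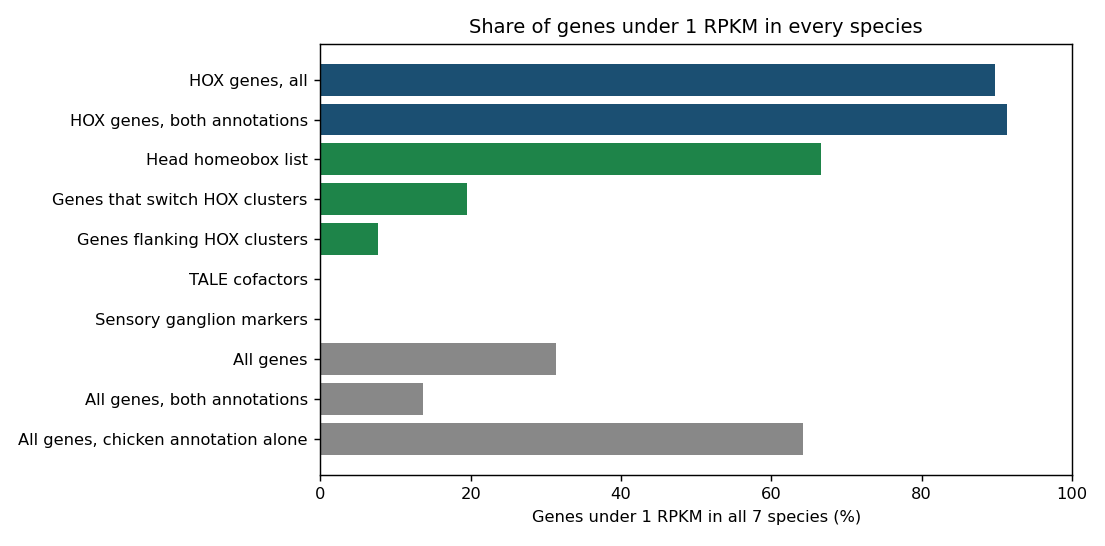
Percentage of genes under 1 RPKM in all 7 species, for the HOX genes (blue), lists of related genes (green) and all genes of the table by annotation (grey), with bars starting at 0. The HOX genes stand at 89.7%, the head homeobox list at 66.7% and all genes at 31.3%.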

How the data were processed

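RNA of the trigeminal ganglia of 21 embryos was sequenced from strand-specific poly(A) libraries. Per the submitters' processing notes and the methods, trimming (Trimmomatic 0.36) was followed by alignment of every library to the duck (BGI_duck_1.0) and the chicken (GRCg6a) genome with STAR 2.5.4b. Reads were then assigned to genes by featureCounts (Subread 1.6.2), with edgeR 3.22.3 used by the authors for normalization. The deposited table gives RPKM as 1 mean of 3 birds per species, with duck and chicken genes merged by symbol. Reads lost across species and differing gene lengths can therefore change ratios of ducks to chicken.

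From this table, levels, counts, sums and log2 ratios with a pseudocount of 1 were computed in Python 3.11.15 with pandas 2.3.3 and drawn with matplotlib 3.10.9. The code was tested on simulated data. Without values per bird no difference between species was tested. The lowest RPKM values were searched for the step of 1 read. In 15 pairs of ducks, the fullest bin of 0.02 log2 units held 3.47% to 14.5% of low genes, so no single step was found and no interval is given.

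The limit for members was 1 RPKM. Every member above it was named with all its values, other members with their highest, and from each list up to 3 genes of highest mean. Lists were matched by exact symbol. Some genes of these lists are not reported here. The members and lists were chosen with earlier results of these data known. Of the 39 members, 38, all but HOXD1, were matched by symbol to the RefSeq genes of the assembly IASCAAS_PekinDuck_T2T, which served only for gene names and order. Alternatives were limits of 0.5 and 2 RPKM, a pseudocount of 0.1, scaling of species by their median ratio over 10053 genes, genes of both annotations only, leaving out Ruddy duck or the highest member, no filter on low values and the mean over species as the level.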

Additional observations from a re-analysis of the deposited data

Results flagged for a closer look

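The species means of HOXB2, HOXD1, HOXD3, HOXD8 and the summed HOX level were searched for values far from the rest, each over 7 species and over 6 ducks, with the limit of Dixon's test, which chance passes in about 1 in 20 independent groups. That rate does not apply here, because these genes were picked through their highest species and the groups share values, so the 4 of 10 groups past the limit are a description and no test. HOXD1 in chicken, at 5.31 RPKM, was separated from the next species by 0.988 of the whole range, and it was this value that brought the gene over 1 RPKM. HOXD3 in Wood duck, at 3.79 RPKM, was separated by 0.590 of the range over 7 species and by 0.623 among the ducks, where it was not past the limit. HOXD8 in Ruddy duck, at 3.85 RPKM, was separated by 0.574 of the range over 7 species and by 0.678 among the ducks. Each value is a mean of 3 birds, and whether 1 bird carries it cannot be read from the table.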

How the results depend on the processing

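The count of 35 of 39 members under 1 RPKM in every species stayed between 33 and 37 under the alternatives that kept all members. Of these, leaving out Ruddy duck (35) and leaving out chicken (36) were chosen after seeing the data. With genes of both annotations only, the count was 32 of 35 members. With a limit of 0.5 RPKM, 1 posterior member, HOXD9, passed where none did at 1 RPKM. Without a filter on low values, chicken lay above every duck in 4 members and below every duck in 6, instead of 1 and 2, and with genes of both annotations only it lay above in 0. After scaling, the summed level was 8.33 RPKM in chicken and 6.88 RPKM in Ruddy duck. The shift common to all genes between ducks and chicken, a median of 0.18 on the log2 scale, became 0.01 after scaling. Without HOXD8, the member of highest mean, the sum was 3.77 RPKM in Pekin duck, 3.94 in Black duck, 2.06 in Ruddy duck, 3.25 in Lesser Scaup, 4.56 in Harlequin duck and 4.67 in Wood duck. The chicken sum was 1.83 RPKM with genes of both annotations only and 1.84 RPKM without HOXD1, an alternative added after seeing the data, so chicken went from the highest to the lowest species. With a pseudocount of 0.1 the log2 ratios of ducks to chicken were 0.92 for HOXB2, -5.31 for HOXD1, 2.47 for HOXD3 and 1.77 for HOXD8, larger in size by construction. No ratio changed sign. No paired analysis was possible because the table holds 1 mean per species, and for the same reason no bird could be left out. The methods give the read pairs per sample only as a range, so the depth behind the low values of a given species is unknown. The order of species for levels under 0.1 RPKM, HOXD10 among them, therefore has no known precision.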
